A study of Rattus norvegicus with 4 samples.

Results

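A set of 10 genes that mark macrophages was followed through RNA sequencing of rat liver: *Csf1r*, *Cd68*, *Cd163*, *Marco*, *Clec4f*, *Vsig4*, *Cd5l*, *Timd4*, *Adgre1* and *Ly86*. A member was found by its symbol in the abundance table of each library, and 9 of the 10 had a row in every table, among 16999 named genes analysed. *Timd4* had no row in any of the 4 tables. The rats were wild type and breathed 4.5% sevoflurane or 6% desflurane, which are halogenated general anesthetics. For each agent, a control animal was decapitated directly after it lost consciousness (0 h) and another animal was decapitated after 6 h of anesthesia, and the 4 groups are called sevoflurane 0 h and 6 h and desflurane 0 h and 6 h. Strain, sex and age were not given in the sources used here. Each group held 1 library, and without a replicate error each comparison sets 1 animal beside another. The livers of control and anesthetized animals were also collected 6 h apart, so that duration of anesthesia and time of day cannot be told apart. Both controls had breathed the agent up to loss of consciousness, and no animal without anesthetic was included.

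Kupffer cells are the resident macrophages of the liver. They sit inside the sinusoids, where they take up bacteria, debris, complement-coated particles and aged red blood cells from portal blood. Their survival depends on the receptor Csf1r and its ligands Csf1 and Il34, and their identity on transcription factors such as PU.1 (encoded by *Spi1*), Id3, Spic and LXR alpha (encoded by *Nr1h3*). *Clec4f*, *Vsig4*, *Timd4* and *Cd5l* are typical of resident Kupffer cells in rodents, whereas *Csf1r*, *Cd68* and *Adgre1* are shared by macrophages of many tissues. A whole liver is mostly hepatocyte RNA, so a lower level of a macrophage gene can come from fewer macrophages or from less of that RNA in each of them, and these cannot be told apart in bulk tissue.

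The promoters of 4 members are shown because *Clec4f* and *Cd5l* had the highest levels, *Csf1r* had the largest difference after desflurane and *Cd68* the largest between both anesthetized animals. Each is the RefSeq sequence of the rat assembly GRCr8, from 250 bases before the start of the gene to 50 bases after it, written 5′ to 3′ on the strand of the gene. The windows are chr4:117696358-117696657 (minus strand) for *Clec4f*, chr2:175088665-175088964 (plus strand) for *Cd5l*, chr18:56834129-56834428 (plus strand) for *Csf1r* and chr10:54882392-54882691 (minus strand) for *Cd68*. Capitals mark GAGGAA, or TTCCTC where it lies on the opposite strand, a short core of sites bound by PU.1, the master regulator of the myeloid lineage.
Clec4f: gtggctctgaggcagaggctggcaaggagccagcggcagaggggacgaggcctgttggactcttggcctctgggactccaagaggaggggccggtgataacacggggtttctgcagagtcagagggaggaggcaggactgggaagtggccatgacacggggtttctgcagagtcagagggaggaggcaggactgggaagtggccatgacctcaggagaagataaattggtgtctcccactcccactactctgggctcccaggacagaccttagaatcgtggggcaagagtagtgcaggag
Cd5l: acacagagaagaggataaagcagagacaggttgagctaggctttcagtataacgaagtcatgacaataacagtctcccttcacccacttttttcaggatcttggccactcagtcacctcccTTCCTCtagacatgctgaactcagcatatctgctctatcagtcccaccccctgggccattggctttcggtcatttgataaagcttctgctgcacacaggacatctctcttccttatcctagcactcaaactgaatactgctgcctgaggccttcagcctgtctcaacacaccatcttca
Csf1r: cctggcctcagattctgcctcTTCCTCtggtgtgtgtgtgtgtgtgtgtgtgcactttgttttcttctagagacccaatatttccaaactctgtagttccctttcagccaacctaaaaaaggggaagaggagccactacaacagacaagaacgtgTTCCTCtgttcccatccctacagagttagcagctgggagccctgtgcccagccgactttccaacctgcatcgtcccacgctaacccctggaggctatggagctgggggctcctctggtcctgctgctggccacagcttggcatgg
Cd68: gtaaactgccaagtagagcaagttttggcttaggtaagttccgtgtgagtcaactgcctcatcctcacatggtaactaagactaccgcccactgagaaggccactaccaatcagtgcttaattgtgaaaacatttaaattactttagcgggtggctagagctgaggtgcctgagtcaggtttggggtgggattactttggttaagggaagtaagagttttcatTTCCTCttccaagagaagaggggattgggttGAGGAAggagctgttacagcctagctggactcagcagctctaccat
*Csf1r* held 2 copies, at bases 22 and 156 of its window, both on the opposite strand. *Cd68* held 2, at base 224 on the opposite strand and at base 255 on the given strand, *Cd5l* held 1 at base 122 and *Clec4f* held none. Of the members with an entry, *Marco* and *Adgre1* also held 1 copy each, whereas *Cd163*, *Vsig4* and *Timd4* held none, so that the motif was present in 5 of 9 promoters (55.6%). The entry for *Marco* lies on another chromosome than the measured row of that symbol and may not belong to it, and without it the count was 4 of 8. Among all 27457 promoters of the table, 27.5% held it. The motif was chosen after the expression values were seen, both strands were searched, and a match describes letters in a window rather than a bound site. *Ly86* had no entry.

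Albumin, the main secreted protein of hepatocytes, took between 6.91% and 7.50% of the summed TPM (a transcript level scaled for gene length and library size) of named genes in each library, and the signal recognition particle RNA *Rn7sl1* took between 18.1% and 20.7%. Depth was lowest in sevoflurane 0 h, with 3.50 Gb of aligned bases, while the other libraries held between 5.29 and 5.57 Gb. The mean coverage of a gene at a TPM of 2 was 4.72 in that library and between 6.84 and 7.28 in the others, so low values are least precise in that control. The tables hold no read counts, and no counting interval can be given.

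All 9 measured markers were detected above a TPM of 2 in all 4 libraries, in an order led by lectin and scavenger-type genes of resident Kupffer cells. *Clec4f*, a C-type lectin receptor on chromosome 4 (positions 115322300 to 115332021 in the rn6 build), had the highest level, with TPM values of 134, 112, 134 and 141 in sevoflurane 0 h, then sevoflurane 6 h, desflurane 0 h and desflurane 6 h. *Cd5l*, on chromosome 2 from 186685104 to 186696117, encodes a secreted scavenger-receptor protein that macrophages release, and stood at 111, 86.5, 89.3 and 105 in the same order, which is kept for all levels below. These 2 genes made up between 58.3% and 63.5% of the summed TPM of the 9 markers. *Clec4f* lay between the 95.1 and 95.7 percentiles of the genes above 0 in each library, near the top of the transcripts measured in whole liver.

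Phagocytic receptors formed the middle of the order. *Marco*, a scavenger receptor that binds bacteria, had TPM values of 44.6, 40.1, 38.6 and 58.6. The deposited tables place *Marco* on chromosome 16 from 85115199 to 85147683, whereas the RefSeq table of GRCr8 places a gene of that symbol on chromosome 13, and this was not resolved. *Vsig4*, the complement receptor with which Kupffer cells hold C3b-coated particles, lies on chromosome X from 65370851 to 65400298 and stood at 36.3, 24.4, 29.9 and 37.1. *Cd163*, the receptor for haptoglobin-hemoglobin complexes, lies on chromosome 4 from 156752093 to 156785467 and stood at 19.5, 22.8, 19.2 and 26.7. For *Marco*, *Vsig4* and *Cd163* alike, the highest value was that of desflurane 6 h.

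General macrophage genes and the receptor accessory gene *Ly86* were lower. *Csf1r*, the tyrosine kinase receptor of macrophage growth factors, lies on chromosome 18 from 56431891 to 56458300 and had TPM values of 18.6, 16.8, 16.3 and 26.0. *Adgre1*, which encodes the F4/80 antigen, lies on chromosome 9 from 9431888 to 9585852 and stood at 16.2, 11.5, 12.6 and 15.6. *Cd68*, a glycoprotein of late endosomes and lysosomes, lies on chromosome 10 from 56268726 to 56270605 and stood at 6.18, 3.93, 5.91 and 7.28. For *Csf1r* and *Cd68* the highest library was again desflurane 6 h, whereas for *Adgre1* it was sevoflurane 0 h. *Ly86*, which encodes MD-1, the partner of the Toll-like receptor homolog Cd180, lies on chromosome 17 from 28104589 to 28178882. Its TPM was 8.76 and 3.29 with sevoflurane and 5.93 and 4.49 with desflurane, so both controls were above both anesthetized animals, on a mean coverage per base of 20.7, 11.3, 20.5 and 16.3.

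By mean TPM the order was *Clec4f* (130.4), *Cd5l* (97.9), *Marco* (45.5), *Vsig4* (31.9), *Cd163* (22.0), *Csf1r* (19.4), *Adgre1* (14.0), *Cd68* (5.83) and *Ly86* (5.62). Only 3 pairs of neighbors in this order had ranges over the 4 libraries that overlapped, namely *Vsig4* with *Cd163*, *Cd163* with *Csf1r*, and *Cd68* with *Ly86*. The ratio of the highest to the lowest library was 1.26 for *Clec4f* and 1.28 for *Cd5l*, the steadiest members, and 1.85 for *Cd68* and 2.66 for *Ly86*, the least steady and least abundant ones. The median of this ratio was 1.52 over the markers and 1.47 over 9201 genes whose mean TPM was 1 or more and which were at 0 in no library. It exceeded 2 for 1 marker (11.1%) and for 19.4% of those genes.

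**Figure D1:**
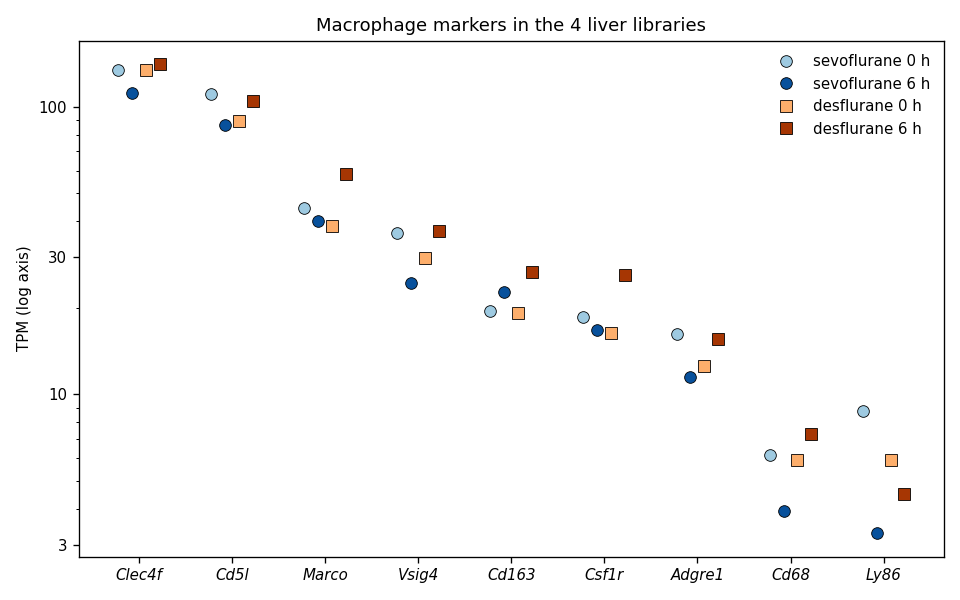
TPM of the 9 macrophage markers with a row, on a log axis, in each of the 4 liver libraries, where circles are sevoflurane, squares are desflurane, light symbols are 0 h and dark symbols are 6 h, and a point is 1 library. The desflurane 6 h library is the highest for 6 markers and the sevoflurane 6 h library the lowest for 6, and *Ly86* spans the widest range, from 3.29 to 8.76.

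The first comparison asked how the markers differed after 6 h of sevoflurane. Compared with sevoflurane 0 h, 8 of the 9 markers were lower and only *Cd163* was higher. Calls required a larger TPM above 2 and a ratio above 2, and by this rule *Ly86* alone fell, to 0.376 of its control. Of the 8270 genes that could be called, 3.71% were called lower and 5.04% higher, or 8.75% in all, so 1 called marker of 9 is close to the background. The summed TPM of the markers was 395 in sevoflurane 0 h and 321 in sevoflurane 6 h.

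The sizes of these differences were modest apart from *Ly86*. On the scale of log2(TPM + 1), which understates the change of low genes, the difference was -1.19 for *Ly86*, -0.55 for *Vsig4*, -0.54 for *Cd68* and -0.46 for *Adgre1*. For the last 3 the TPM ratios were 0.673, 0.637 and 0.709, and their differences lay between the 7.67 and 10.1 percentiles of the 9204 genes whose mean TPM was 1 or more, while *Ly86* lay at the 1.45 percentile. The abundant *Cd5l* and *Clec4f* differed by -0.36 and -0.26, and *Marco* and *Csf1r* by -0.15 and -0.14. *Cd163* was higher by 0.22, with a TPM ratio of 1.17. The median over the 9 markers was -0.36, beside 0.05 over the 9204 genes, of which 55.5% were higher. Against the desflurane control instead, the median was -0.12, *Csf1r* and *Marco* changed sign, *Ly86* was no longer called, and 6 of 9 markers were lower.

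The second comparison asked the same of desflurane. Compared with desflurane 0 h, 8 of the 9 markers were higher and *Ly86* was lower, and none was called, where 9.66% of 8374 genes were called (4.11% higher and 5.55% lower). The largest differences were those of *Csf1r*, at 1.59 times its control, and *Marco*, at 1.52 times. Their log2 differences of 0.64 and 0.59 lay at the 94.2 and 93.2 percentiles of all genes. *Cd163* was higher by 0.46, *Vsig4* by 0.30, *Adgre1* by 0.29, *Cd68* by 0.26 and *Cd5l* by 0.23, whereas *Clec4f*, the most abundant, was nearly level at 0.07. *Ly86* differed by -0.34, with a TPM ratio of 0.757. The median was 0.29 over the markers and -0.10 over the 9204 genes, of which 38.3% were higher, and the summed TPM of the markers was 352 at 0 h and 421 at 6 h. Against the sevoflurane control the median was 0.07, *Cd5l* and *Adgre1* changed sign, and *Csf1r* and *Marco* were still higher, by 0.46 and 0.39.

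**Figure D2:**
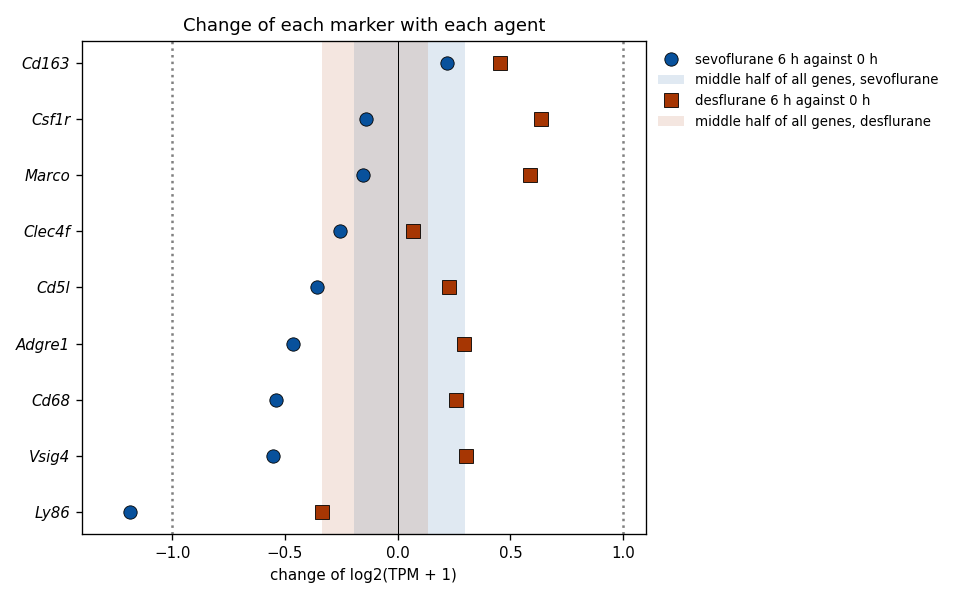
Change of log2(TPM + 1) of each marker between 6 h and 0 h with sevoflurane (circles) and desflurane (squares), with the interquartile range of 9204 genes shaded for each agent and dotted lines at a 2-fold change of TPM + 1. Each point compares 2 single libraries. With sevoflurane 8 markers lie left of 0 and with desflurane 8 lie right of it, and *Cd163* and *Ly86* are the only markers on one side of 0 with both agents.

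The changes with the 2 agents come from separate pairs of animals and share no library. For 7 markers (77.8%) the level was lower after sevoflurane and higher after desflurane, which held for 9.90% of the 9204 genes. *Cd163* was higher with both agents and *Ly86* lower with both. The desflurane change minus the sevoflurane change was largest for *Vsig4* (0.85) and *Ly86* (0.85) and smallest for *Cd163* (0.24), and it was above 0 for all 9 markers, beside 34.5% of all genes. With 1 pair of animals an agent, the difference could not be tested.

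The 2 controls and the 2 anesthetized animals were then compared with each other. Both comparisons use libraries of the comparisons above, so they restate the same values from another side. Of the 9 markers, 8 were lower in the desflurane control than in the sevoflurane control, with a median of -0.20 where the median of all genes was 0.11. None was called, beside 2.76% of 8263 genes. *Ly86* differed by -0.49, *Adgre1* by -0.34 and *Cd5l* by -0.31, while *Cd68* and *Cd163* differed by -0.05 and -0.02, and *Clec4f* lay at 0.004, turning negative when libraries were scaled by the median of their ratios. The control animals thus differed in the level of most markers. After 6 h, all 9 markers were higher with desflurane than with sevoflurane, by a median of 0.41 beside -0.03 over all genes, of which 45.9% were higher. The ratios were 1.85 for *Cd68*, 1.55 for *Csf1r*, 1.52 for *Vsig4* and 1.46 for *Marco*, and the smallest log2 difference was that of *Cd163* (0.22). None was called, beside 3.98% of 8231 genes.

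The difference that both agents had in common was tested with limma over 8024 genes whose mean TPM was 2 or more, with a term for the agent and 1 residual degree of freedom. An adjusted p below 0.05 was found for 8.62% of genes, 4.69% higher and 3.94% lower. None of the 9 markers did, and 1 of them, *Ly86*, had an unadjusted p below 0.05, where 19.9% of all genes did. *Ly86* had a common log2 change of -0.76 with a standard error of 0.26 and a limma p of 0.0121, which became 0.104 after Benjamini-Hochberg adjustment and lay between 0.112 and 0.159 in the alternative fits. *Cd163* had a common change of 0.34 with a standard error of 0.18 and a limma adjusted p of 0.325. For *Csf1r* and *Marco* the common change was 0.25 and 0.22, and for the other 5 markers it lay between -0.14 and -0.06. Over these 7 genes the limma adjusted p-values lay between 0.602 and 0.895. Their changes with the agents had opposite signs, so the common change averages values on both sides of 0. The difference between the agents enters the residual of this fit. A change particular to 1 agent therefore cannot be read from it.

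The markers did not move in equal measure. After subtracting the median change of the markers, *Ly86* stood at -0.83 with sevoflurane and -0.63 with desflurane. *Cd163* stood 0.57 above the median with sevoflurane, and *Csf1r* and *Marco* stood 0.22 and 0.21 above it with sevoflurane and 0.34 and 0.30 above it with desflurane. *Clec4f* stood at -0.22 with desflurane. *Ly86* was thus below the other markers with both agents.

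A second readout came from loci assembled from the reads of each library, which rest on the same reads. Assembled loci over *Clec4f*, *Vsig4* and *Cd5l* had the same TPM as the named row within 1%, and those over *Csf1r* lay between 1.01 and 1.02 times it. Over *Marco*, the assembled locus spanned 63.4% of the annotated gene and its TPM was 1.22 to 1.26 times higher. The assembled locus of *Cd68* was split in sevoflurane 6 h, at 0.795 times the named value. That of *Ly86* was also split in this library, where the piece used spanned 71.6% of the gene, at 1.15 times the named value. In sevoflurane 0 h the *Ly86* locus spanned 100%. With these loci in place of the named rows, *Cd68* passed the rule between both anesthetized animals, at a ratio of 2.33. *Ly86* still passed it with sevoflurane, at 0.433 of its control. Both ratios thus set a split locus beside a whole one. In 3 libraries another locus was assembled on the strand opposite to *Cd163*, with TPM values of 279, 299 and 315, and none was assembled there in sevoflurane 0 h. Libraries were prepared with a stranded kit, but whether counting used strand was not given in the sources used here, and without it reads of *Cd163* and of this locus cannot be told apart.

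For *Timd4*, the phosphatidylserine receptor by which resident macrophages bind dying cells, only an unnamed assembled locus could be examined. On the plus strand of chromosome 10, between the genes *Havcr1* and *Sgcd*, which flank *Timd4* in the RefSeq table, a locus from 31880920 to 31917216 was assembled in sevoflurane 0 h. It spans 36297 bases, where *Timd4* spans 36102 bases in that table. Its TPM was 6.44 and 3.84 with sevoflurane and 5.59 and 5.31 with desflurane, and sevoflurane 6 h was the lowest. In that library the locus ended earlier and spanned 34451 bases, with a separate piece from 31916466 to 31917171 at a TPM of 1.42, so its value is for a shorter locus. The identity of this locus was not established and it was not counted among the markers.

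Genes that act on or with the markers were examined as a list of 13 ligands and partners, all of which had a row. With sevoflurane 3 were higher and 10 lower, with desflurane 5 were higher and 8 lower, and 1 was called, as lower, with each agent. As background, the rule marked a fall in 3.71% of 8270 genes for sevoflurane and in 5.55% of 8374 genes for desflurane. The 1 called gene of this list was *Tlr4*, the receptor for bacterial lipopolysaccharide. *Tlr4* fell with sevoflurane (TPM 2.97 and 1.34) and with desflurane (2.76 and 1.28). In limma its common change was -0.74, with an adjusted p of 0.0899, so it did not pass the test across all genes. Its co-receptors differed from each other. *Ly96*, which encodes MD-2, stood at 4.81 and 3.13 with sevoflurane and at 5.53 and 3.98 with desflurane, while *Cd14* stood at 19.3 and 13.4 and at 17.5 and 25.2, lower after sevoflurane and higher after desflurane like most markers. *Cd180*, the binding partner of the *Ly86* product, stood between 0.044 and 0.22 in all libraries, a level at which no difference can be read.

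The ligands of Csf1r were low in whole liver. *Csf1* stood at 1.94 and 0.92 with sevoflurane and at 1.62 and 0.82 with desflurane, below the TPM minimum of the rule in every library, and *Il34* lay between 2.64 and 3.05. Ligands made by hepatocytes were abundant. *Hp*, whose product haptoglobin carries hemoglobin to Cd163, lay between 7157 and 8805, and *C3*, the source of the ligand of Vsig4, between 2505 and 2684. The heme oxygenase gene *Hmox1* stood at 14.1 and 9.76 with sevoflurane and at 13.8 and 13.6 with desflurane, and the iron exporter gene *Slc40a1* at 11.8 and 14.3 and at 15.9 and 10.2. Neither was called with any agent.

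Of 11 transcription factors known from macrophages, 9 were abundant enough for limma and 3 passed it, 1 higher and 2 lower, beside the 8.62% of all genes tested (4.69% higher and 3.94% lower). *Cebpb* rose with sevoflurane (TPM 42.3 and 79.3) and with desflurane (28.4 and 168), a common log2 change of 1.71 with a standard error of 0.28 and a limma adjusted p of 0.0017. Other liver cells express *Cebpb*, *Nr1h3* and *Id3* too, so in whole liver these values do not belong to macrophages alone. *Nr1h3* fell from 101 to 66.2 and from 104 to 64.3 (limma adjusted p of 0.0105). *Id3*, a regulator of Kupffer cell development, fell from 36.0 to 26.2 and from 31.7 to 17.6 with a limma adjusted p of 0.0441, but in the 5 alternative fits its adjusted p lay between 0.0552 and 0.131, past the threshold in none. *Cebpb* and *Nr1h3* passed in all 5.

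*Spi1*, *Spic* and *Irf8*, which are more restricted to blood-forming cells and macrophages, were not called with either agent. *Spi1* stood at 3.44 and 1.86 with sevoflurane and at 2.93 and 3.58 with desflurane, with a limma adjusted p of 0.756. *Spic*, the regulator of iron-recycling macrophages, stood at 1.01, 0.22, 0.92 and 0.85, below the TPM minimum of the rule, so it could not be called. *Irf8* stood at 5.37, 6.17, 6.35 and 7.90. *Spi1* and *Spic* had their lowest value in sevoflurane 6 h, as 6 of the markers did. Among the rest of the list, *Id1* passed the rule of size with desflurane, at 2.45 and 5.25. So did *Cebpb*, where 4.11% of all genes were called higher. *Maf*, *Tfec* and *Cebpa* were not called with either agent. *Runx1*, between 0.080 and 0.31, lay below the TPM minimum and could not be called.

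**Figure D3:**
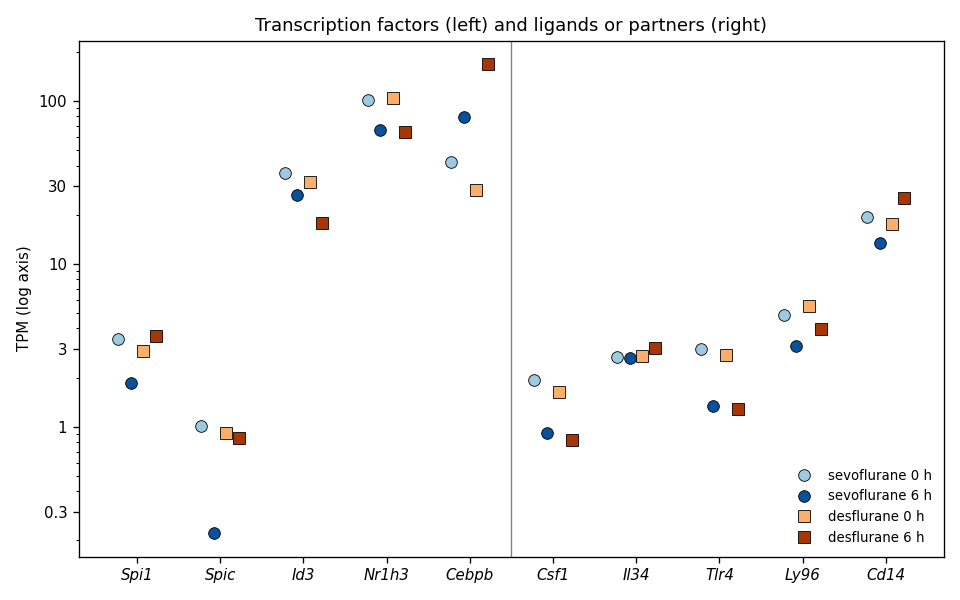
TPM on a log axis of 5 transcription factors (left) and 5 ligands or partners of the markers (right) in the 4 libraries, where circles are sevoflurane, squares desflurane, light symbols 0 h and dark symbols 6 h. *Cebpb* stands higher and *Nr1h3*, *Id3*, *Csf1* and *Tlr4* stand lower at 6 h with both agents, while *Spi1* and *Cd14* are lowest in sevoflurane 6 h.

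Other gene lists of macrophage function gave counts that lay beside those of the markers. The 9 genes for C1q chains and Fc receptors had 1 higher and 8 lower with sevoflurane (median -0.27) and 6 higher and 3 lower with desflurane (median 0.03). Among them *C1qa*, the most abundant and a Kupffer cell product, stood at 117, 97.1, 117 and 120, and *Fcgr3a*, a low-affinity IgG receptor, fell from 10.8 to 5.35 with sevoflurane by the rule of size. All 9 were higher in desflurane 6 h than in sevoflurane 6 h, by a median of 0.39. Of 9 scavenger and clearance receptors with a row, 4 were higher and 5 lower with sevoflurane (median -0.33) and 8 higher and 1 lower with desflurane (median 0.10), and none was called with either agent. Of 12 phagosome and lysosome genes, which other cells also express, 4 were higher and 8 lower with sevoflurane (median -0.16) and 9 higher and 3 lower with desflurane (median 0.16), again with none called. Over these 3 lists no gene passed limma, and 1 in each had an unadjusted p below 0.05.

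Markers of other cells were summed in each library beside those of macrophages. The 8 pan-leukocyte genes summed to 42.7, 29.8, 39.5 and 42.3, led by *Arhgdib*, with 6 lower with sevoflurane (median -0.39) and 4 lower with desflurane (median 0.08). Over the 6 of these genes whose mean TPM was 1 or more the medians were -0.51 and -0.08, so the sign with desflurane depends on the low genes. The 10 T and NK cell genes summed to 9.79, 4.90, 7.80 and 5.78. Calls of a lower level numbered 3 with sevoflurane (*Cd8a*, *Nkg7* and *Prf1*) and 1 with desflurane (*Cd8a*). Over all genes that could be called, 3.71% and 5.55% were called lower. These 3 genes stood at 2.24, 2.87 and 2.36 in sevoflurane 0 h, near the TPM minimum. *Nkg7* and *Prf1* were also called lower in the desflurane control (0.94 and 1.04) than in the sevoflurane control. Recruited monocyte and myeloid genes, of which 8 of 10 had a row, summed to 20.0, 15.3, 22.1 and 15.9, most of it *Lyz2*, which resident macrophages also express. The 9 neutrophil genes summed to 2.35, 4.60, 3.43 and 2.34, with *Mpo* at 0 in every library. Of these genes, 6 were higher with sevoflurane, where *S100a8* rose from 0.74 to 2.19. With desflurane 5 were lower, and *S100a9* fell from 2.15 to 0.50. Both genes came near the minimum of the rule, but the highest value of the others was 0.295, in sevoflurane 6 h. These counts thus rest mostly on values near 0. B cell genes, led by *Cd22*, summed to between 1.97 and 2.95 and dendritic cell genes, led by *Cd83*, to between 4.20 and 4.93. All these sums stood far below the 321 to 421 of the macrophage markers. The lists differ in the number and choice of their genes, so these sums do not compare amounts of cells.

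Structural cells and blood were summed in the same way. The 9 sinusoidal endothelium genes with a row, led by *Ehd3*, summed to 109, 115, 109 and 128, with 6 lower and 3 higher with sevoflurane (median -0.06) and 6 higher and 3 lower with desflurane (median 0.26), and *Gpr182* fell from 4.02 to 1.90 with sevoflurane by the rule of size. With desflurane the endothelium median lay near that of the macrophage markers (0.29). Of the 9 endothelium genes, 8 were higher in desflurane 6 h than in sevoflurane 6 h (median 0.13). The 10 stellate cell and fibroblast genes summed to 152, 208, 162 and 222, mostly *Col3a1*. Of these 10 genes, 7 were higher and 3 lower with sevoflurane (median 0.17), and 9 higher and 1 lower with desflurane (median 0.21). *Pdgfrb* fell from 6.04 to 2.41 with sevoflurane by the rule of size. Bile duct genes, mostly *Epcam*, summed to between 7.05 and 8.67. Red blood cell genes summed to 451, 1215, 728 and 1342, with all 5 genes with a row higher at 6 h with both agents and 3 called with sevoflurane, namely *Hbb*, the most abundant, with *Hba-a2* and *Alas2*. Of the 8270 genes that could be called with sevoflurane, 5.04% were called higher. The red blood cell sum was thus higher in both 6 h libraries than in both controls. The 10 hepatocyte genes summed to 103723, 102266, 107159 and 96446, mostly albumin. Of them, 7 were higher and 3 lower with sevoflurane (median 0.16), and 4 higher and 6 lower with desflurane (median -0.11). In desflurane 6 h, 9 were lower and 1 higher than in sevoflurane 6 h (median -0.10). None of them was called with sevoflurane. With desflurane 1 was called, the urea cycle gene *Ass1*, which rose from 580.5 to 1457, where 4.11% of all genes were called higher. In the main limma fit 3 of 10 hepatocyte genes and 1 of 9 stellate cell and fibroblast genes passed, all higher. So did all 3 red blood cell genes tested, while no endothelium or bile duct gene passed. Of all genes tested, 4.69% passed as higher. Without the agent term, not all of these listed genes passed. The part that these other cells and the blood have in the values of the macrophage markers was not tested.

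**Figure D4:**
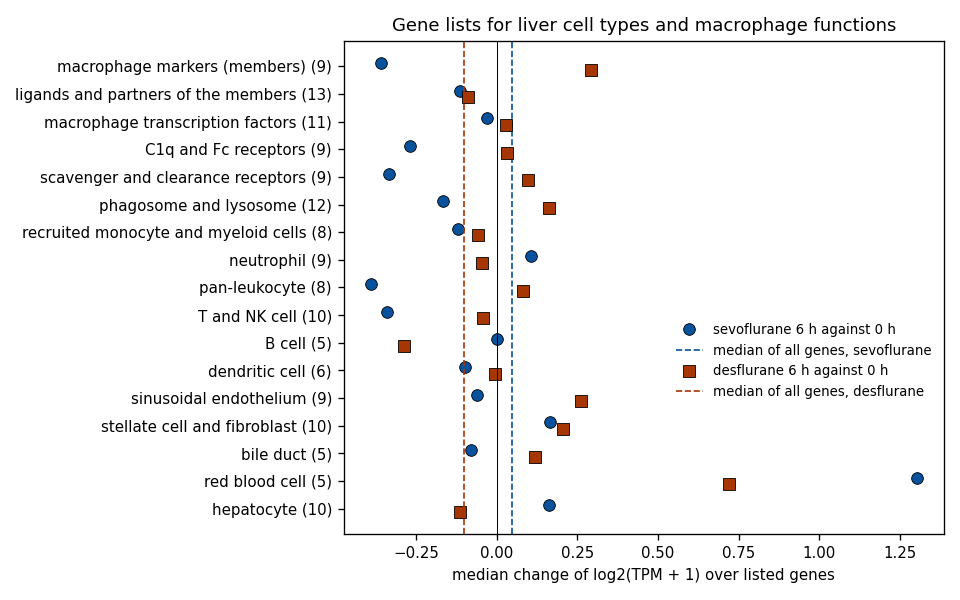
Median change of log2(TPM + 1) between 6 h and 0 h over the genes with a row in 17 lists (number of genes in parentheses), for sevoflurane (circles) and desflurane (squares), with dashed lines at the median of 9204 genes for each agent. The macrophage markers stand at -0.36 with sevoflurane and 0.29 with desflurane, pan-leukocyte genes at -0.39 and 0.08, and red blood cell genes at 1.30 and 0.72. Over genes whose mean TPM was 1 or more, the medians with desflurane of pan-leukocyte and bile duct genes turn negative and that of B cell genes positive, and those of dendritic cell genes turn positive with both agents.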

How the data were processed

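The submitters kept liver in RNAlater, purified RNA with an RNeasy Midi kit and prepared stranded libraries with a TruSeq total RNA kit. Their processing notes name HISAT2, SAMtools, StringTie and the rat build rn6, without versions. The authors deposited 1 gene abundance table per library, in the layout of StringTie. The deposited TPM values of assembled loci alone fill the whole scale of the unit and the named genes add 0.766 to 0.789 of it, so this column was treated as a score and used for all levels. The FPKM deposited by the authors differs from TPM by a constant factor in each library (1.48 to 1.57) and gave the aligned bases together with coverage. The deposited coverage signal is the mean depth per base and is not scaled for depth. No read counts were used.

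Rows of a symbol were summed and genes whose rows all spanned 200 bp or less were left out. Of 16999 genes, 15057 (88.6%) matched the RefSeq table of GRCr8, used for names, neighbors and promoters. Groups were taken from sample titles. A change was called at a larger TPM above 2 and a ratio above 2, with log2 changes on log2(TPM + 1) and background over genes whose mean TPM was 1 or more. limma 3.58.1 in R 4.3.3 (eBayes with trend, two-sided, Benjamini-Hochberg over 8024 genes) tested the change common to both agents. Its p-values measure only the spread among these 4 libraries, with 1 residual degree of freedom moderated over genes. That residual holds the spread between animals together with any difference between the agents. The moderation added 10.9 prior degrees of freedom, estimated over all genes tested. Steps were tested on simulated data. All markers were named, as were all genes of the ligand and transcription factor lists where informative, up to 3 called genes a list, direction and agent, and the most abundant gene of a summed list. *Mpo* (at 0), *Rn7sl1* and the flanking genes *Havcr1* and *Sgcd* were named after their values were seen. A gene of the transcription factor list as first drawn up is not reported here, and the counts of that list leave it out. The markers and lists were chosen with earlier results of these data known. Alternatives covered the ratio, TPM minimum, pseudocount, scaling, control, fit and assembled rows.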

Additional observations from a re-analysis of the deposited data

Results flagged for a closer look

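For 7 markers the level differed in opposite directions with the 2 agents, lower at 6 h with sevoflurane and higher at 6 h with desflurane. The desflurane change minus the sevoflurane change on the log2 scale was 0.78 for *Csf1r*, 0.80 for *Cd68*, 0.74 for *Marco*, 0.32 for *Clec4f*, 0.85 for *Vsig4*, 0.59 for *Cd5l* and 0.75 for *Adgre1*. The medians of the 9 markers differed by 0.65 in the same direction. With 1 pair of animals an agent the difference was not tested, and opposite signs were found for 37.1% of 9204 genes. Of these 7 markers, 6 were lower in the desflurane control than in the sevoflurane control, and all 7 were higher in the desflurane animal at 6 h.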

How the results depend on the processing

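The number of markers called moved with the ratio, the control and the rows used. With sevoflurane it was 1 and became 2 at a ratio above 1.5, 0 at a ratio above 3 and 0 against the desflurane control. With desflurane it was 0 and became 2 at a ratio above 1.5. Between both anesthetized animals it was 0 and became 3 at a ratio above 1.5 and 1 with assembled loci in place of named rows, an alternative chosen after seeing the data. The share of all genes called was computed only for the main rule. The counts of markers under the alternatives therefore have no background to set them against. The cause was not tested beyond what each alternative changes by its construction. Another 51 values of counts and medians kept their direction and side, but some of them could not change. All 9 markers exceeded a TPM of 2 in every library. A minimum mean TPM of 2 or a TPM minimum of 1 therefore left the markers as they were. Scaling by the median of ratios moved the median of the markers to -0.42 with sevoflurane, 0.40 with desflurane, -0.33 between the controls and 0.45 between the anesthetized animals, and a pseudocount of 0.1 gave -0.36, 0.31, -0.21 and 0.44. No marker passed limma in any of the 5 alternative fits, which called between 488 and 640 genes in all. Depth limits what can be read of genes at low levels, such as *Cd180* and *Runx1*. No paired analysis was possible because each group held 1 library and its replicate number pairs no animals. The agent term in limma sets each 6 h library against the control of its own agent, and without this term 488 genes passed in place of 692.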
